A study of Mus musculus with 5 samples.

Results

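The chemokine ligand genes Ccl1, Ccl3, Ccl4, Ccl5 and Xcl1 and the receptor genes Xcr1 and Ccr8 were followed across lineage gates of tumor-derived cells from doxorubicin (DOX) sensitive and DOX resistant mammary tumors. The members were chosen by symbol, and these 7 genes were each listed once among 32285 genes of the T cell libraries and among 55645 gene IDs of the series in all. The data were single-cell RNA sequencing libraries counted at the 3' end of transcripts with unique molecular identifiers (UMIs). Tumors came from 4T1-Thy1.1 cells, a BALB/c mammary cancer line tagged with Thy1.1, grown in the mammary fat pad of female BALB/c mice aged 12 weeks. The sensitive and resistant groups were both given 3 intravenous doses of 5 mg/kg DOX, 3 days apart, and were told apart by growth of the tumor under treatment, while control mice received saline. For the 2 T cell libraries, T cells from 3 tumors per library were pooled after magnetic depletion of non-T cells and of CD90.1 (Thy1.1) bearing cancer cells. The other 3 libraries held whole tumors labelled control, sensitive and resistant.

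Each group was 1 library, so spread between mice was not measurable and no test between groups was possible. All intervals in brackets are 95% intervals of counting error only. Levels are given as CPM, the UMIs of a gene per 1000000 UMIs of all genes, summed over the gated cells of a library.

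Chemokines are small secreted proteins that steer cells bearing the matching receptor. CCL3, CCL4 and CCL5 are released by activated CD8 T cells, natural killer (NK) cells and myeloid cells, and CCL3 and CCL5 act on cells that bear CCR1. XCL1 is a product of NK cells and CD8 T cells, and its receptor XCR1 marks the cross-presenting conventional dendritic cells. CCL1 is made by activated T cells, among them type 2 helper cells, and CCR8 is known from regulatory and type 2 T cells in tumors and skin.

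The T cell libraries held 3949 barcodes and 31690845 UMIs (sensitive) and 6116 barcodes and 35908799 UMIs (resistant), of which 3448 and 3091 cells were kept. Median mitochondrial content over all barcodes was 2.47% (sensitive) and 8.95% (resistant), and the libraries shared 31 barcodes. CD8 cells were gated on a Cd3 UMI and a Cd8 UMI without Cd4, and all 9 T cell markers were detected in both CD8 gates. Despite the depletion, neutrophils, macrophages, dendritic cells and fibroblasts remained in both libraries and each carried its own defining markers. In the CD8 gate 7 neutrophil markers summed to 7.83 CPM (sensitive, 4 of 7 with a UMI and Cxcr2, Retnlg and Mmp9 at 0) and 38.4 CPM (resistant, 7 of 7). All 9 macrophage markers had a UMI in the CD8 gate of both libraries and summed to 143 and 77.3 CPM. Of 7 fibroblast markers, 6 and 7 had a UMI there and summed to 62.8 and 24.0 CPM. The part of these other cells or of free RNA in the CD8 values was not tested.

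In the mm10 (GRCm38) build with the GENCODE M21 annotation, Ccl5 lay at chr11:83525778-83530518 on the minus strand, Ccl3 at chr11:83647844-83649355 on the minus strand and Ccl4 at chr11:83662584-83664683 on the plus strand. Ccl3 and Ccl4 were 13228 bases apart and Ccl5 was 117325 bases from Ccl3. Ccl1 lay 1220087 bases from Ccl5 on the same chromosome, and its gene model spanned chr11:82176657-82305690 on the minus strand, while its main transcript took up only chr11:82176657-82179812. Xcl1 lay apart from them at chr1:164931644-164935527 on the minus strand and overlapped the gene model Gm20743 on the opposite strand. Each of the 5 ligand genes had 3 exons in its main transcript. The receptor genes each had 2 exons, with Xcr1 at chr9:123852315-123862029 on the minus strand and Ccr8 at chr9:120092114-120094906 on the plus strand.

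Promoters of the ligand genes are shown because T cell receptor signals switch these genes on through NFAT, AP-1 and NF-kappaB. Of the 7 members, 5 were found in the RefSeq promoter table (GRCm38.p6), which held no entry for Ccl4 or Ccl5. The 250 bases before the start are given for Ccl1 (chr11:82179813-82180062), Ccl3 (chr11:83649379-83649628) and Xcl1 (chr1:164935523-164935772), all on the minus strand. They are written 5' to 3' on the gene's own strand, and capitals mark the NFAT core letters GGAAA read on either strand.
Ccl1: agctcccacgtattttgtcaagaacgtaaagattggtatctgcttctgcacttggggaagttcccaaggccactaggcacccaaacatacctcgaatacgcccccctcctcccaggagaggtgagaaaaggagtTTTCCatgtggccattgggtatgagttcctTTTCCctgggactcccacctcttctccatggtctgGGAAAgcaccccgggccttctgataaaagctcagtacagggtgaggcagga
Ccl3: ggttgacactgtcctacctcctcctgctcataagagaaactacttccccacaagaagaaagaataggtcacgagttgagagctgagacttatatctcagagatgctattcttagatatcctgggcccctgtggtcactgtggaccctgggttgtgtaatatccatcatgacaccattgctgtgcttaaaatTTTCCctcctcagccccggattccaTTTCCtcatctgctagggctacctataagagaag
Xcl1: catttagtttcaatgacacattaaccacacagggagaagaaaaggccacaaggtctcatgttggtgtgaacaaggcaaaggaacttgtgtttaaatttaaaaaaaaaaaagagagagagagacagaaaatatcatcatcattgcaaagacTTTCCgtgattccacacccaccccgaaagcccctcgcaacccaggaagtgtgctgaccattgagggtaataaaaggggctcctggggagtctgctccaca
GGAAA was found 3 times before Ccl1, 2 times before Ccl3, 1 time before Xcl1 and 1 time before Xcr1, and it was not found before Ccr8. Matches began 116, 86 and 51 bases before the start of Ccl1, 59 and 34 bases before that of Ccl3 and 100 bases before that of Xcl1. GGAAA stood in 55.6% of 32817 promoters of the same length, so a match is a description and not a site. The AP-1 letters TGANTCA (in 6.75% of promoters) and the cyclic AMP response letters TGACGTCA (1.55%) were searched on both strands and had 0 matches in these 5 windows. The kappaB motif, which can hold GGAAA in some of its forms, had 0 matches with only A or T allowed at its position 6 (3.90% of promoters). With any base allowed there (7.25% of promoters), it had 2 overlapping matches before Ccl1, which began 196 and 195 bases before the start, and none before the other 4 genes.

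The first question was which cells held the ligand RNA. CD8 cells held most of the Ccl5 UMIs, 83.3% in the sensitive library and 84.4% in the resistant one. CD8 cells held 65.4% and 55.9% of the Ccl4 UMIs, macrophages 11.6% and 24.2% and neutrophils 6.26% and 12.0%. For Ccl3 they held 48.5% (sensitive) and 28.8% (resistant), while neutrophils held 20.2% and 40.9%. Xcl1 was shared among lymphocytes, with 47.8% and 73.6% in CD8 cells, 23.0% and 12.3% in NK cells and 17.6% and 4.44% in T cells with neither Cd4 nor Cd8. Of the Ccl1 UMIs, CD8 cells held 5.13% in the sensitive library and 41.6% in the resistant one, where Cd4 cells without Foxp3 held 42.1%. Such shares move with the number of cells in each gate and with RNA per cell, which these sums do not tell apart. The CD8 gate held 1324 sensitive and 1585 resistant cells, with medians of 4032.5 and 4632 UMIs per cell.

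**Figure D1:**
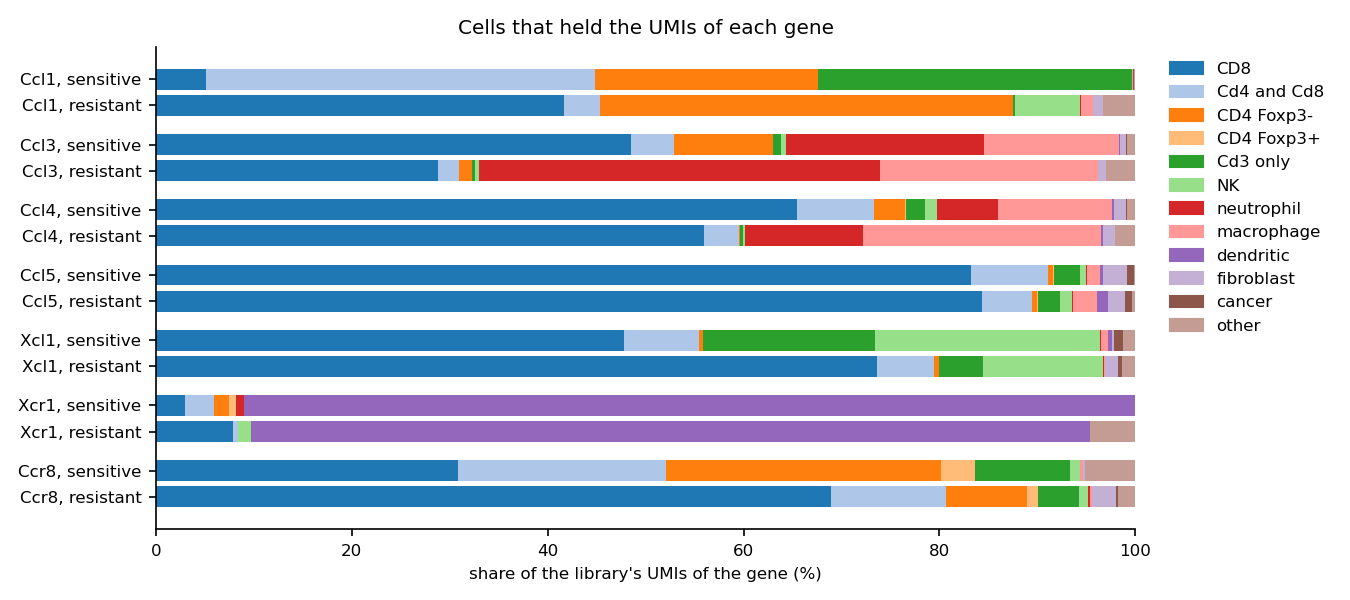
Share of each library's UMIs of a gene (x axis, %) by the gate of the cell that held them, for the 5 ligand genes and 2 receptor genes in the sensitive and resistant T cell libraries (1 library each), where Cd3 only means T cells with neither Cd4 nor Cd8. CD8 cells hold 83.3% and 84.4% of Ccl5 UMIs, and dendritic cells hold most Xcr1 UMIs.

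In CD8 cells the 3 linked CC ligands were higher in the sensitive library, and the ligands Xcl1 and Ccl1 were not. Ccl3 stood at 578.4 CPM (560.1 to 597.2) in sensitive CD8 cells and at 166.3 CPM (158.1 to 174.9) in resistant ones, which made a ratio of 3.48 (3.28 to 3.69). Ccl4, the partner gene of Ccl3, stood at 2320.9 CPM (sensitive) and 1003.3 CPM (resistant), a ratio of 2.31 (2.25 to 2.37). Ccl5, a ligand kept by effector and memory CD8 cells, stood at 7200.1 CPM and 2858.4 CPM, a ratio of 2.52 (2.48 to 2.56). Over 8339 genes with at least 100 UMIs in the CD8 gate, 1.16% were at least 2-fold higher and 0.684% at least 2-fold lower in the sensitive library, so 3 of 5 ligands past 2-fold stands beside a background of 1.16%. Genes with a ratio as high as that of Ccl3, Ccl4 and Ccl5 made up 0.264%, 0.732% and 0.540% of those 8339 genes.

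The median gene ratio in the CD8 gate was 1.095, and relative to it the ratios were 3.17 for Ccl3, 2.11 for Ccl4 and 2.30 for Ccl5. Mitochondrial content differed between the CD8 gates as well, with a median of 2.49% in the sensitive and 5.66% in the resistant cells. With cells of at most 5% mitochondrial UMIs alone, an alternative chosen after seeing the data, the ratios of Ccl3, Ccl4 and Ccl5 were 3.38, 2.43 and 3.14 over 1237 sensitive and 662 resistant cells.

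Xcl1, the XCR1 ligand, differed little in its summed level but was spread over other numbers of cells. It stood at 341.6 CPM (327.6 to 356.1) in sensitive and 386.5 CPM (373.9 to 399.4) in resistant CD8 cells, a ratio of 0.884 (0.838 to 0.932). The sensitive UMIs came from 174 cells and the resistant UMIs from 446. The 5 sensitive CD8 cells with most Xcl1 held 49.7% of its UMIs, against 14.1% for the 5 resistant cells with most. Without those 5 cells in each library the Xcl1 ratio was 0.520.

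Ccl1, the CCR8 ligand, was lower in sensitive than in resistant CD8 cells and was found in few of either, whereas over all kept cells it was higher in the sensitive library (164.7 against 59.3 CPM). It stood at 38.9 CPM (34.2 to 43.9, 253 UMIs in 41 cells) in sensitive CD8 cells and at 74.2 CPM (68.7 to 79.9, 685 UMIs in 106 cells) in resistant ones. The Ccl1 ratio was 0.524 (0.452 to 0.606), and 0.334 without the 5 cells with most Ccl1 in each library. Those 5 cells held 66.4% of the Ccl1 UMIs in the sensitive gate and 47.5% in the resistant one.

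**Figure D2:**
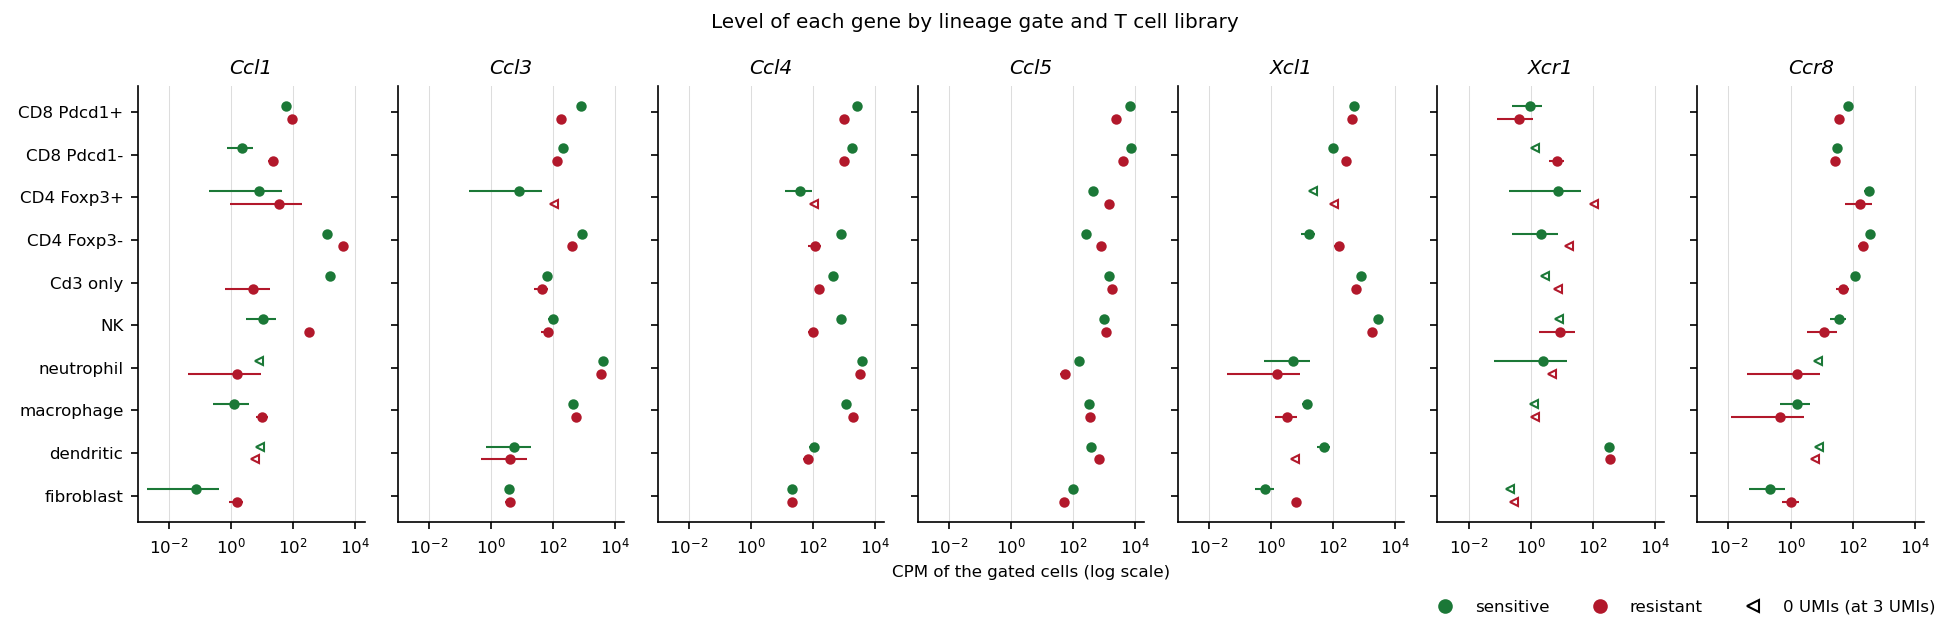
Level of each gene in CPM of the gated cells (x axis, log scale) by lineage gate (y axis) in the sensitive (green) and resistant (red) T cell libraries. Bars are exact Poisson 95% intervals and open triangles mark gates with 0 UMIs, drawn at the level of 3 UMIs. Ccl5 is highest in CD8 cells, Ccl3 and Ccl4 are high in neutrophils, Xcl1 is highest in NK cells and Xcr1 in dendritic cells.

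Shares of cells gave the same order between libraries as the sums for the 3 CC ligands. After each cell was thinned to 1000 UMIs, which left out 10 sensitive and 4 resistant CD8 cells, a Ccl3 UMI was found in 16.7% (14.7 to 18.8) of the sensitive cells against 7.84% (6.57 to 9.28) of the resistant ones. Without thinning Ccl3 was found in 369 of 1324 and 317 of 1585 cells. Ccl4 was seen in 47.5% (44.8 to 50.2) and 32.8% (30.4 to 35.1) of thinned CD8 cells, and in 67.3% and 53.8% without thinning. Ccl5 was seen in 68.0% (65.4 to 70.6) and 48.6% (46.2 to 51.1), and in 76.7% and 65.7% without thinning. The intervals of the libraries did not overlap for Ccl3, Ccl4 or Ccl5, but the share of all genes that separate in this way was not counted.

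Xcl1 and Ccl1 went the other way by share of cells. Xcl1 was seen in 6.39% (5.13 to 7.85) and 14.5% (12.8 to 16.4) of thinned CD8 cells, and in 13.1% and 28.1% without thinning. Ccl1 was seen in 0.989% (0.528 to 1.69) and 2.28% (1.60 to 3.14), and in 3.10% and 6.69% without thinning, and its thinned intervals overlapped. Fibroblasts had a median of 13360 (sensitive) and 13806 (resistant) UMIs per cell, and their shares are given for comparison. Whether UMIs in fibroblasts came from free RNA or from their own expression was not tested. Of the 66 Xcl1 UMIs in resistant fibroblasts, 39 lay in 1 cell. Thinning removes a larger part of these deeper cells' UMIs than of CD8 cells' UMIs, so unthinned shares are given as well. After thinning to 1000 UMIs, 2.94% of sensitive and 3.64% of resistant fibroblasts had a Ccl5 UMI, 0.857% and 2.31% a Ccl4 UMI and 0.245% and 0.496% a Ccl3 UMI. Without thinning these fibroblast shares were 6.41% and 7.10% for Ccl5, 2.90% and 5.28% for Ccl4 and 1.45% and 2.81% for Ccl3. For Xcl1 the share was 0 of 817 sensitive fibroblasts, which by a floor of 3 counts allows up to 0.367% of cells with a UMI at this thinned depth, and 0.331% of the resistant ones, and 0.484% and 2.31% without thinning. The Ccl1 share was 0 of 817 and 0 of 605, which allows up to 0.367% and 0.496%, and 0.121% and 0.990% without thinning. In level, fibroblast Ccl5 stood at 102.9 CPM (sensitive) and 52.4 CPM (resistant), a ratio of 1.96 (1.78 to 2.17) in the direction of the CD8 cells, with 55.4% and 41.0% of its UMIs in 5 cells. Ccl5 was higher in sensitive cancer cells (2.05, 1.75 to 2.41) as well. The neutrophil ratio of 2.81 (1.83 to 4.39) rested on 61 and 35 UMIs, with Ccl5 in 4 of 148 and 5 of 183 thinned cells. Ccl5 was lower in sensitive T cells with neither Cd4 nor Cd8 (0.81, 0.740 to 0.886) and in dendritic cells (0.56, 0.455 to 0.685). NK cells, macrophages and Cd4 cells without Foxp3 also had Ccl5 ratios below 1, as given below. Its direction was thus neither particular to CD8 cells nor shared by all gates. Fibroblast ratios of Ccl3 and Ccl4 were 0.976 (0.636 to 1.51) and 1.06 (0.881 to 1.26). Each of these CD8 shares lay over the fibroblast share of the same library, thinned and not thinned.

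**Figure D3:**
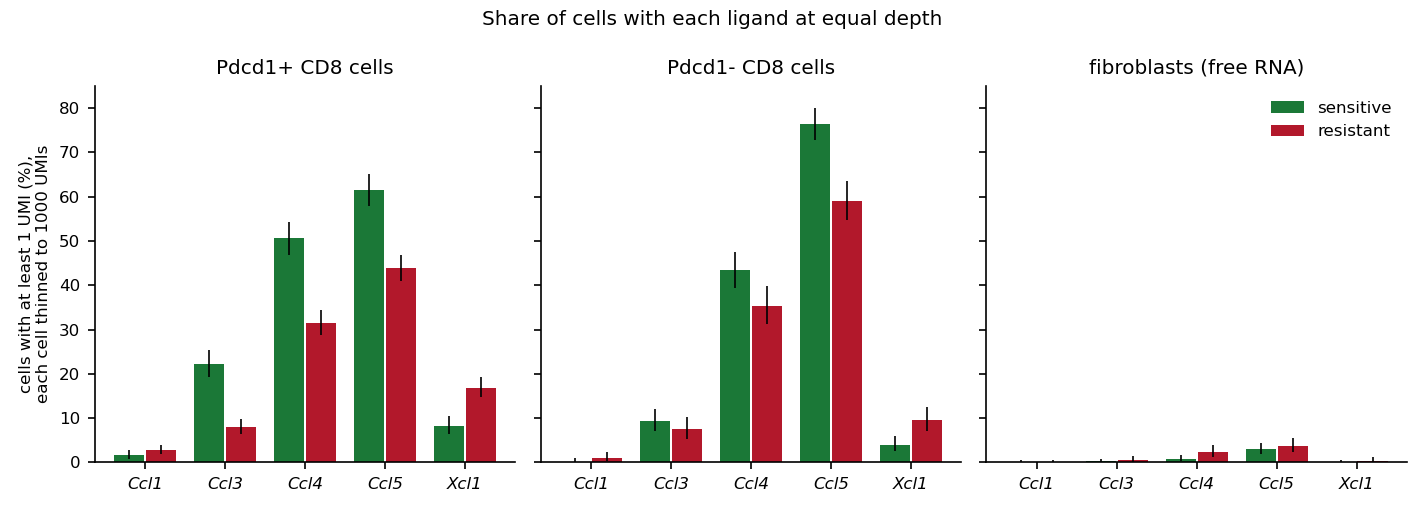
Share of cells with at least 1 UMI of each ligand (y axis, %) after thinning each cell to 1000 UMIs, in Pdcd1+ CD8 cells, Pdcd1- CD8 cells and fibroblasts of the sensitive (green) and resistant (red) libraries, with exact Clopper-Pearson 95% intervals. Ccl4 and Ccl5 are seen in more sensitive cells and Xcl1 in more resistant cells of both CD8 gates, and Ccl3 in more sensitive Pdcd1+ cells, while its intervals overlap in Pdcd1- cells.

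The CD8 gate was then split by a UMI of Pdcd1, which encodes the inhibitory receptor PD-1 of activated and exhausted T cells. Cells with a Pdcd1 UMI numbered 746 (sensitive) and 1089 (resistant), and cells without one numbered 578 and 496. Cells with the UMI were also deeper, with medians of 4641.5 against 3443.5 UMIs in the sensitive library and 5307 against 3725.5 UMIs in the resistant one. Some cells without a Pdcd1 UMI may still express the gene.

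For Ccl3 the libraries lay further apart in the Pdcd1+ cells. Ccl3 stood at 772.4 CPM in sensitive Pdcd1+ CD8 cells and at 175.6 CPM in resistant ones, a ratio of 4.40 (4.12 to 4.70). In Pdcd1- CD8 cells Ccl3 stood at 208.8 and 133.1 CPM, a ratio of 1.57 (1.35 to 1.83). Within the sensitive library Ccl3 was 3.70-fold (3.36 to 4.09) higher in Pdcd1+ than in Pdcd1- cells, and within the resistant library 1.32-fold (1.16 to 1.51) higher. Ccl3 was seen in 22.2% and 8.00% of thinned Pdcd1+ cells and in 9.46% and 7.49% of thinned Pdcd1- cells, where the intervals overlapped. Without thinning these Ccl3 shares were 37.1% and 21.7% in Pdcd1+ and 15.9% and 16.3% in Pdcd1- cells.

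Ccl4 and Ccl5 were higher in the sensitive library with and without a Pdcd1 UMI. The Ccl4 ratio was 2.60 (2.52 to 2.67) in Pdcd1+ and 1.77 (1.68 to 1.87) in Pdcd1- CD8 cells. Ccl5 stood at 7171.1 against 2476.5 CPM in Pdcd1+ cells, a ratio of 2.90 (2.84 to 2.95), and at 7255.3 against 4233.8 CPM in Pdcd1- cells, a ratio of 1.71 (1.67 to 1.76). Ccl5 was thus about level between Pdcd1+ and Pdcd1- cells of the sensitive library (0.988, 0.970 to 1.007) and was lower in the Pdcd1+ cells of the resistant library (0.585, 0.570 to 0.600). Ccl4 followed with 1.45 (1.40 to 1.51) in the sensitive library and 0.994 (0.946 to 1.04) in the resistant one.

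Xcl1 stood at 467.8 CPM in sensitive Pdcd1+ CD8 cells and at 419.9 CPM in resistant ones, a ratio of 1.11 (1.05 to 1.18). Divided by the median gene ratio of that gate it was 1.02. In Pdcd1- cells it stood at 101.3 and 266.1 CPM, a ratio of 0.381 (0.324 to 0.445). The share of thinned cells with Xcl1 was lower in the sensitive library in both gates, at 8.21% against 16.8% of Pdcd1+ and 4.03% against 9.51% of Pdcd1- cells. Without thinning these Xcl1 shares were 17.0% against 32.3% and 8.13% against 19.0%. Without the 5 cells with most Xcl1 in each library the Pdcd1+ ratio was 0.583, so the higher sum in the sensitive library rested on few cells. In the Pdcd1- gate 5 cells held 48.9% of the sensitive Xcl1 UMIs and 51.5% of the resistant ones. Ccl1 in the sensitive library had 248 UMIs in Pdcd1+ against 5 UMIs in Pdcd1- CD8 cells, while the resistant library had 641 and 44 UMIs. The Ccl1 ratio between libraries was 0.655 (0.563 to 0.759) in Pdcd1+ and 0.102 (0.0315 to 0.256) in Pdcd1- cells.

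**Figure D4:**
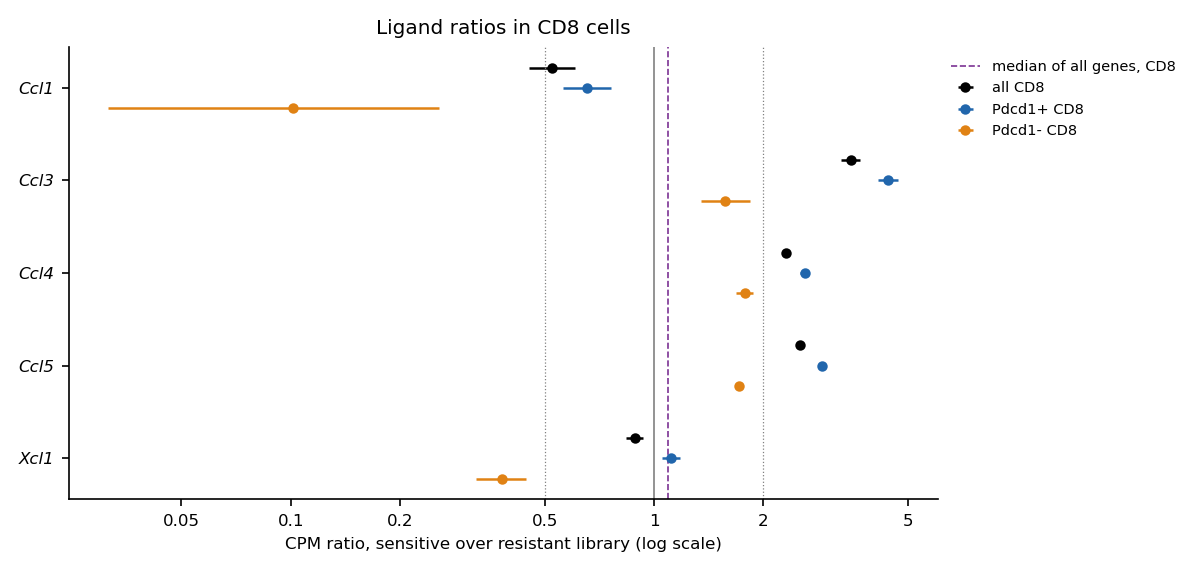
CPM ratio of the sensitive over the resistant library (x axis, log scale) for each ligand in all CD8 cells (black), Pdcd1+ (blue) and Pdcd1- (orange) CD8 cells, with exact conditional 95% intervals. The solid line marks 1, dotted lines mark 2-fold and the dashed line the median gene ratio of 1.095. Ccl3, Ccl4 and Ccl5 lie right of 1 in every gate shown, and Xcl1 lies on different sides of 1 in the Pdcd1 gates.

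Other splits of the CD8 gate showed where the ligands stood within each library. Havcr2 encodes the inhibitory receptor TIM-3, and cells with its UMI had more Ccl3 in both libraries, 4.67-fold (4.37 to 4.98) in the sensitive one and 1.78-fold (1.61 to 1.98) in the other. Xcl1 did not follow, with a Havcr2+ over Havcr2- ratio of 0.973 (0.881 to 1.07) and 0.484 (0.444 to 0.528). Ccl5 was 1.82-fold (1.79 to 1.86) higher in Havcr2+ cells of the sensitive library and 1.03-fold (1.00 to 1.05) in the resistant one.

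Tcf7 encodes TCF-1, a factor of naive, memory and progenitor-like exhausted T cells. Sensitive cells with a Tcf7 UMI, 136 in number, had less Ccl3 than cells without (0.104, 0.0752 to 0.141), whereas in the resistant library, with 94 such cells, Ccl3 was at 0.946 (0.758 to 1.17). Xcl1 was lower in Tcf7+ cells of the sensitive library (0.438, 0.356 to 0.534) and higher in those of the resistant library (2.15, 1.95 to 2.38). Ccl5 was lower in Tcf7+ cells of both (0.561 and 0.529). Between the libraries, Tcf7+ CD8 cells went against the whole CD8 gate for Ccl3, at 66.2 CPM (sensitive) and 158 CPM (resistant), a ratio of 0.419 (0.285 to 0.608) on 43 and 93 UMIs. Ccl4 in Tcf7+ cells was lower in the sensitive library too (0.844, 0.742 to 0.960), while Ccl5 was higher (2.71, 2.51 to 2.92). The 5 cells with most held 72.1% and 82.8% of the Ccl3 UMIs in Tcf7+ cells. Mki67, a gene of dividing cells, marked CD8 cells with less Ccl5 in both libraries (0.340 and 0.370). Cells with a UMI of the T cell receptor segment Trbv14 numbered 195 (sensitive) and 78 (resistant). Ccl3 in Trbv14+ over Trbv14- cells was 1.80 (1.66 to 1.95) for the sensitive and 0.535 (0.390 to 0.717) for the resistant library. None of these differences between the libraries was tested.

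Within single CD8 cells, Ccl3 came with Ccl4. In the sensitive library 194 of 219 thinned cells with Ccl3 also had Ccl4, 1.87 times the number that the product of the separate shares gives, and in the resistant library 96 of 124, or 2.36 times. Ccl3 and Ifng, the gene of interferon gamma, were seen together at 2.15 and 1.73 times the product. Ccl4 and Ccl5 stood at 1.19 and 1.39 times. Xcl1 was seen with Ccl5 less often than the product, at 0.507 and 0.670 times, and with Gzmb, the gene of the cytotoxic protease granzyme B, at 0.443 and 0.518 times. Ccl1 and Xcl1 were seen together more often than the product, in 4 of 13 sensitive and 15 of 36 resistant cells with Ccl1 (4.81 and 2.86 times). These are descriptions of 1314 sensitive and 1581 resistant cells at equal depth and carry no test.

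**Figure D5:**
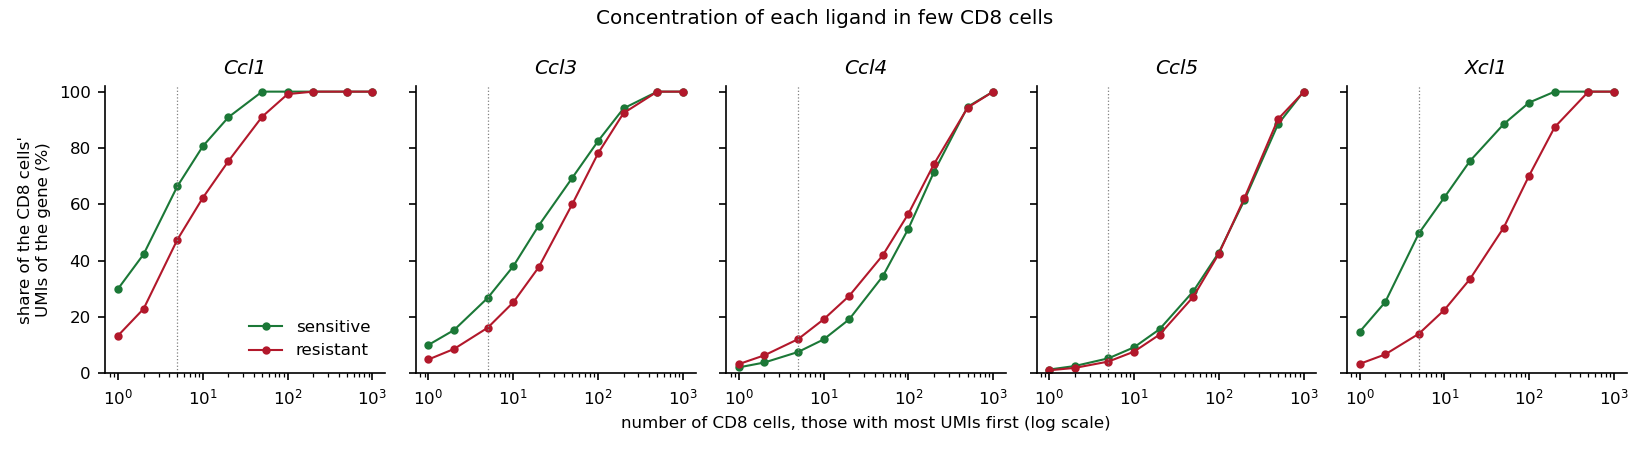
Cumulative share of the CD8 cells' UMIs of each ligand (y axis, %) against the number of CD8 cells taken, those with most UMIs first (x axis, log scale). The dotted line marks 5 cells, which hold 49.7% of the sensitive and 14.1% of the resistant Xcl1 UMIs but 5.36% and 4.21% of the Ccl5 UMIs.

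NK cells, gated on Ncr1 or Klrb1c without a Cd3 UMI, had the highest Xcl1 of all gates in both libraries. Xcl1 stood at 2918.4 CPM (2746.2 to 3098.6) in 68 sensitive and 1811.1 CPM (1668.8 to 1962.2) in 41 resistant NK cells, a ratio of 1.61 (1.46 to 1.78). It was seen in 63.2% (50.7 to 74.6) and 51.2% (35.1 to 67.1) of thinned NK cells, with overlapping intervals, and in 88.2% and 78.0% without thinning. The 5 NK cells with most Xcl1 held 60.2% and 56.2% of its UMIs. Without the 1 NK cell with most Xcl1 in each library the levels were 1927.5 and 1446.0 CPM. Ccl5 stood at 983.7 and 1138.7 CPM in NK cells (0.864, 0.746 to 1.00). Ccl4 stood at 782.1 CPM in sensitive and 103.0 CPM in resistant NK cells, a ratio of 7.60 (5.31 to 11.2) with 78.0% of the sensitive UMIs in 5 cells.

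T cells with a Cd3 UMI and neither Cd4 nor Cd8 had Xcl1 at 796.8 CPM in 301 sensitive and 546.8 CPM in 115 resistant cells. A single cell held 446 of the 819 sensitive UMIs, and without it the level was 377.3 CPM, below the 467.8 CPM of sensitive Pdcd1+ CD8 cells and below the resistant level, so the order of the libraries turned. Of them, the cells with a UMI of Trdc, the constant gene of the delta receptor chain, had Xcl1 at 700.3 CPM (81 cells) and 876.5 CPM (19 cells), a ratio of 0.799 (0.611 to 1.05). In Cd4 T cells without Foxp3 the UMIs of Ccl3, Ccl4 and Ccl5 lay in few cells. Their Ccl3 ratio of sensitive over resistant was 2.07 (1.62 to 2.68), from 4 cells in each library, and 0.858 at the 5% mitochondrial limit, and their Ccl4 ratio was 6.87 (4.42 to 11.3), from 9 and 5 cells. Their Ccl5 ratio was 0.317 (0.256 to 0.393), opposite to CD8 cells, with 116 of the 141 resistant UMIs in 1 cell, and 2.93 without the 5 cells with most in each library. Xcl1 in these cells was low, with 16 UMIs in 178 sensitive and 28 UMIs in 46 resistant cells.

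Neutrophils, gated on markers such as S100a8 and Csf3r, had the highest Ccl3 and Ccl4 of all gates. Ccl3 stood at 4047.7 CPM (3849.9 to 4253.1) in 148 sensitive and 3488.1 CPM (3343.3 to 3637.6) in 183 resistant neutrophils, a ratio of 1.16 (1.09 to 1.24). Ccl4 stood at 3730.4 and 3186.0 CPM, a ratio of 1.17 (1.09 to 1.25). Of 1203 genes with at least 100 UMIs in this gate, 1.25% were at least 2-fold higher and 5.15% at least 2-fold lower in the sensitive library, and neither Ccl3 nor Ccl4 was among them. Ccl3 was seen in 57.4% and 52.5% of thinned neutrophils (66.2% and 63.9% without thinning), with overlapping intervals. Neutrophil Ccl3 and Ccl4 thus lay closer together in the libraries than those of CD8 cells, although the difference between gates was not tested.

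Macrophages or monocytes had Ccl4 at 1119.7 CPM in 212 sensitive and 1911.8 CPM in 175 resistant cells, a ratio of 0.586 (0.558 to 0.615). Ccl3 stood at 447.4 and 566.5 CPM, a ratio of 0.790 (0.727 to 0.858). Both were therefore lower in the sensitive library, opposite to the CD8 cells, by levels of 1 library each. Ccl5 stood at 320.5 and 364.2 CPM (0.880, 0.795 to 0.974), with 57.3% and 70.2% of its UMIs in 5 cells, and its ratio was 1.27 without those 5 cells in each library.

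In the whole-tumor libraries, which used another gene list and are not set against the T cell libraries in level, neutrophils held 95.4%, 97.2% and 78.1% of Ccl3 UMIs (control, sensitive, resistant) and 91.3%, 97.6% and 56.4% of Ccl4 UMIs. In the library labelled resistant, macrophages held 40.0% of Ccl4 UMIs. Neutrophil Ccl3 stood at 830.6 CPM (765.1 to 900.2) in the library labelled control, 1554.6 CPM (1440.1 to 1675.6) in that labelled sensitive and 1267.5 CPM (1152.6 to 1390.7) in that labelled resistant, over 345, 242 and 145 cells. Neutrophil Ccl4 stood at 2034.5, 2640.2 and 2213.8 CPM. The source field named sensitive tumors for all 3 whole-tumor libraries, with DOX for the one titled resistant and with saline for the control, so the labels of these libraries are uncertain. The CD8 gate held 9, 0 and 8 cells there, too few for a comparison. The most Ccl5 UMIs lay in neutrophils of the control (38.1% of 436, with 28.0% in CD8 cells), macrophages of the library labelled sensitive (67.8% of 239) and cancer cells of that labelled resistant (39.5% of 770, with 22.7% in NK and 12.6% in CD8 cells). Xcl1 had 63, 19 and 18 UMIs in all. NK cells held 31, 0 and 9 of them, T cells with neither Cd4 nor Cd8 held 12, 18 and 7, and neutrophils held 14 in the control.

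Ccl1 rested on few cells in both T cell libraries. The sensitive library held 4930 Ccl1 UMIs in 143 cells and the resistant library 1646 UMIs in 148 cells. In the sensitive library, cells with both Cd4 and Cd8 UMIs held 39.7% of them, T cells with neither held 32.0% and Cd4 T cells without Foxp3 held 22.7%. In the resistant library these gates held 3.77%, 0.122% and 42.1%, and NK cells held 6.68%. A single cell gated as a T cell with neither Cd4 nor Cd8 held 1495 of the 1579 Ccl1 UMIs of its gate. This cell had 39191 UMIs in all, with 446 Xcl1, 204 Ccl4 and 144 Csf2 UMIs, 13 Trbc2 and 3 Trac UMIs. It had 0 UMIs of Cd3e, Il7r, Pdcd1, Cd4, Cd8a, Ccl5 and Il13, so its place among T cells is weakly marked for its depth.

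Cd4 T cells without Foxp3 had Ccl1 at 1188.0 CPM in 178 sensitive and 3983.0 CPM in 46 resistant cells, a ratio of 0.298 (0.271 to 0.328). The resistant value came from 8 cells, of which 2 held 360 and 308 of 693 UMIs, and without the 5 cells with most Ccl1 in each library the ratio was 15.9. By share of thinned cells the libraries did not differ beyond counting error, at 33 of 176 (13.3% to 25.3%) and 6 of 46 (4.94% to 26.3%), and at 55 of 178 and 8 of 46 cells without thinning. The gate with both Cd4 and Cd8 UMIs, where mixed droplets may fall, had Ccl1 at 1657.2 CPM in 121 sensitive and 90.5 CPM in 91 resistant cells. Of its sensitive UMIs, 1266 of 1958 lay in 18 cells that had Cd8b1 but no Cd8a UMI.

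Ccl1+ cells lay in other gates in each library, with 28.7% (sensitive) and 71.6% (resistant) in the CD8 gate and 38.5% and 5.41% among Cd4 cells without Foxp3. The type 2 cytokine gene Il13 was itself seen in 29.8% of sensitive and 8.70% of resistant Cd4 cells without Foxp3, so the shares that follow were not separated from these differences. Of Ccl1+ cells, 43.4% (62 of 143, sensitive) and 2.70% (4 of 148, resistant) also had Il4, Il5 or Il13, the cytokine genes of type 2 helper cells. Gata3, the master factor of type 2 cells, was seen in 64.3% and 29.1% of Ccl1+ cells. Xcl1 was seen in 20.3% of sensitive and 58.1% of resistant Ccl1+ cells, and Cd8a in 42.7% and 83.8%. Pdcd1 was seen in 67.8% and 75.0%. Among cells with at least 10 Ccl1 UMIs, Il4, Il5 or Il13 was seen in 70.7% (29 of 41) and 8.70% (2 of 23), and Xcl1 in 22.0% and 91.3%. These shares are of cells of 1 library each and were not thinned, and the sensitive cell with most Ccl1 had no Il4, Il5 or Il13 UMI.

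The second question was which cells carried the receptors. Xcr1 was found in 25 sensitive and 39 resistant cells, with 134 and 216 UMIs. Dendritic cells held 91.0% and 85.7% of these UMIs in 16 and 28 cells. Xcr1 stood at 339.5 CPM (282 to 405) in 31 sensitive and 372.5 CPM (321 to 430) in 45 resistant dendritic cells, a ratio of 0.912 (0.719 to 1.15). It was seen in 29.0% (14.2 to 48.04) and 24.4% (12.9 to 39.5) of thinned dendritic cells, and in 51.6% and 62.2% without thinning. At this depth no difference in dendritic Xcr1 was detectable. Clec9a, a marker of the cross-presenting dendritic cells, marked 20 sensitive and 29 resistant dendritic cells, which held 120 of 122 and 183 of 185 dendritic Xcr1 UMIs. Clec9a was among the genes that set the dendritic gate, and Xcr1 was not. Of all Xcr1+ cells, 64.0% and 82.1% had Clec9a and 76.0% and 100% had Irf8, the factor needed by these cells.

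Ccr8 was carried by T cells. The sensitive library held 1237 Ccr8 UMIs in 416 cells and the resistant library 451 UMIs in 284 cells. CD8 cells made up 43.8% of sensitive and 73.2% of resistant Ccr8+ cells, and Cd4 cells without Foxp3 made up 22.4% and 5.28%. Per gate, Ccr8 was highest in Cd4 cells, at 369.1 CPM (331 to 410) and 212.7 CPM (150 to 293) in those without Foxp3, a ratio of 1.74 (1.24 to 2.51). Cd4 cells with Foxp3, the factor of regulatory T cells, had Ccr8 at 326.0 and 178.0 CPM over 22 and 7 cells. In CD8 cells Ccr8 stood at 58.7 CPM (52.9 to 64.8) and 33.7 CPM (30.0 to 37.6), a ratio of 1.74 (1.496 to 2.03). With a Pdcd1 UMI the Ccr8 ratio was 2.03 (1.72 to 2.41), and without one it was 1.22 (0.841 to 1.77). The share of thinned CD8 cells with Ccr8 was 4.34% (3.30 to 5.58) and 3.42% (2.58 to 4.43), with overlapping intervals, and 13.7% and 13.1% without thinning. Foxp3 was seen in 11.8% and 3.17% of Ccr8+ cells, Gata3 in 51.4% and 27.1%, and Ctla4, an inhibitory receptor gene, in 71.6% and 62.3%.

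Of the receptors of the other ligands, Ccr1 and Ccrl2 are described. Ccrl2, which encodes a receptor-like protein, stood at 39.8 CPM in sensitive and 38.3 CPM in resistant CD8 cells (1.04, 0.880 to 1.22). It was far higher in neutrophils, at 8250.2 and 5686.2 CPM (1.45, 1.38 to 1.52). Macrophages had Ccrl2 at 709.9 and 996.8 CPM (0.712, 0.668 to 0.76). Ccr1 was chiefly a neutrophil and macrophage gene, seen in 57.4% and 46.4% of thinned neutrophils and in 20.4% and 19.4% of thinned macrophages, against 0.381% and 0.0633% of thinned CD8 cells.

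The list of other CC ligands held 6 genes, of which 3 had at least 100 UMIs in CD8 cells and all 3 were past 2-fold, beside the 1.16% background. The others, with fewer UMIs, went both ways. They had 74 sensitive and 19 resistant UMIs (Ccl9), 4 and 22 (Ccl17) and 4 and 73 (Ccl22). Ccl6 stood at 17.7 and 5.85 CPM, Ccl7 at 17.0 and 1.84 CPM and Ccl8 at 13.1 and 3.36 CPM. In macrophages these genes stood at 3660.4 and 2547.3 CPM (Ccl6), 543.8 and 547.5 CPM (Ccl7) and 12719.7 and 2338.3 CPM (Ccl8). Macrophage markers summed to 143 CPM in sensitive and 77.3 CPM in resistant CD8 cells, and fibroblast markers to 62.8 and 24.0 CPM. The part of either cell type in these low values was not tested. Among 20 genes induced by T cell receptor signals, 19 had at least 100 UMIs in CD8 cells, none passed 2-fold either way and their median ratio was 1.32, beside 1.095 for all genes. The nearest to 2-fold were Ifng at 1.95 (1.84 to 2.07) and Nr4a1, an early response gene, at 1.94 (1.74 to 2.17). The ratios of Ccl3, Ccl4 and Ccl5 were above that of each of these 19 genes.

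Genes with the most similar pattern were found by the Pearson correlation of log2(CPM + 10) over 21 gate and library profiles of at least 20 cells, a description over profiles that share libraries. Ccl3 was most like Tnf (r = 0.901), Osbpl8 (0.894) and its neighbour Ccl4 (0.885). Ccl4 was most like Vsir (0.890), Ccl3 and Abr (0.879). Ccl5 was most like Klrk1 (0.913), which encodes the activating receptor NKG2D, Phf11c (0.900) and Wdr95 (0.887). Xcl1 was most like Emid1 (0.942), Cd160 (0.937), a receptor gene of NK and CD8 cells, and Eomes (0.933), which was among the NK markers of the lineage call. Ccl1 was most like Csf2 (0.853), the gene of the cytokine GM-CSF, Rad18 (0.825) and Il13 (0.820). Xcr1 was most like Clec9a (0.994), Sult1a1 (0.981) and Ccl22 (0.963). Ccr8 was most like Icos (0.957), a costimulatory receptor gene, Xlr4b (0.955) and Xlr4a (0.952), which are near-identical copies whose reads cannot be firmly told apart.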

How the data were processed

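Droplet single-cell RNA sequencing was measured in 5 libraries, 1 per group. The authors aligned reads to mm10 with Cell Ranger and deposited UMI counts per gene and barcode without normalization, and per the file headers version 6.0.0 was used for the T cell libraries and 3.0.1 for the whole-tumor libraries. Barcodes under 500 genes or over 10% mitochondrial UMIs were dropped from the T cell libraries (whole tumor: 200 genes and 20%, where mitochondrial features held 0 UMIs). As many of the highest Scrublet scores (scanpy 1.11.5) were removed from each T cell library as 0.8% per 1000 barcodes gives, 112 sensitive and 159 resistant cells. Each cell took the lineage with the highest mean marker level over 10 marker lists, with at least 2 markers detected, and T cells and NK cells were gated on single genes, none of them a member.

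UMIs were summed per gate and library and scaled to CPM, with exact Poisson intervals, and ratios have exact conditional binomial intervals (Python 3.11.15, scipy 1.17.1). Called means past 2-fold, read beside all genes with at least 100 UMIs in the gate. With 1 library per group no test was run. Shares were taken after thinning each cell to 1000 UMIs, with exact Clopper-Pearson intervals. A gene with 0 UMIs was read at a floor of 3 counts per library and gate for levels and shares. In the ratio of a member this floor was used where the other library had more than 3 UMIs. The ratios over all genes, which gave the background and the medians, used a smaller floor. The ratios and their intervals were tested on simulated counts with known folds. Each simulated gene sum was 1 Poisson draw, so UMIs gathered in few cells were not simulated. The simulation cannot show how the intervals behave for such genes. Genes named beside the members are those of a list past 2-fold and the 3 genes with at least 200 UMIs most like each member. Other genes given beside the members, such as Ccr1, Ccrl2, Ifng, Nr4a1 and the genes that split or describe their cells, fall outside this rule and were named after values were seen. The members and lists were chosen with earlier results of these data known. Some genes of the receptor list are not reported here.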

Additional observations from a re-analysis of the deposited data

Results flagged for a closer look

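Xcl1 lay on different sides of 1 in the CD8 gates with and without a Pdcd1 UMI. Its CPM ratio of the sensitive over the resistant library was 1.11 in Pdcd1+ and 0.381 in Pdcd1- CD8 cells. Relative to the median gene of each gate it was 1.02 and 0.346, so the Pdcd1+ value stood about level with the typical gene. With 1 library per group, the difference between these gates was not tested. The Pdcd1+ value was below 1 under 3 alternatives, at 0.583 to 0.958, and by share of thinned cells Xcl1 was lower in the sensitive library in both gates.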

How the results depend on the processing

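No paired analysis was possible because each group had 1 library. The count of 3 ligands at least 2-fold higher in sensitive CD8 cells was the same under every alternative run. For 25 of 30 ratios no alternative was called turned, a call made only where the main interval excluded 1. Ratios whose interval held 1, such as Ccl5 in NK cells and Xcr1 in dendritic cells, could cross 1 without this call. In CD8 cells, a limit of 20% mitochondrial UMIs gave ratios of 3.12 (Ccl3), 2.05 (Ccl4) and 2.32 (Ccl5). A limit of 5%, chosen after seeing the data as was leaving out barcodes found in both T cell libraries, gave 0.425 (Ccl1), 2.43 (Ccl4), 3.14 (Ccl5) and 0.739 (Xcl1). At least 1000 genes gave 2.39 (Ccl4), and gating without the lineage call gave 2.41 (Ccl4) and 2.59 (Ccl5). Scaling by the median gene ratio gave 3.17 (Ccl3), 2.11 (Ccl4), 2.30 (Ccl5) and 0.807 (Xcl1). The mean over cells gave 3.09 (Ccl3), 2.22 (Ccl4), 2.33 (Ccl5) and 0.728 (Xcl1). Thinning gave 2.20 (Ccl4) and 2.32 (Ccl5). Without the 5 cells with most UMIs of the gene in each library the ratios were 0.334 (Ccl1), 3.06 (Ccl3), 2.44 (Ccl4) and 0.520 (Xcl1). Directions that turned were Xcl1 in Pdcd1+ CD8 cells (0.915 as a mean over cells, 0.583 without the 5 cells, 0.958 with Pdcd1 read after thinning), and in Cd4 cells without Foxp3 Ccl1 (from 0.298 to 15.9 without the 5 cells), Ccl3 (from 2.07 to 0.858 at the 5% limit) and Ccl5 (from 0.317 to 6.53 with at least 1000 genes, 1.43 at the 5% limit, 2.93 without the 5 cells). Ccl5 in macrophages turned to 1.27 without the 5 cells. Xcl1 in T cells with neither Cd4 nor Cd8 turned without 1 sensitive cell, to 377.3 CPM against 546.8 CPM. Where cells were left out, the values rest on fewer cells, and otherwise the cause was not tested. At this depth Xcr1 was found in 25 and 39 cells and Ccl1 in 143 and 148 cells, which limits the precision of both.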
